A study of Mus musculus with 22 samples.

Results

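The 7 genes described here carry thyroid hormone into cells, activate it, hold it, read it or respond to it, and they were followed in tanycytes of the mouse hypothalamus. Their rows were taken by symbol (Dio2, Slco1c1, Crym, Thrsp, Thra, Thrb and Klf9), and all 7 were found among the 20668 genes of the single-nucleus table and the 16304 genes of the whole-cell table. Tanycytes were the 438 nuclei that the deposited annotation names Tany, of 24965 nuclei, and the 14404 whole cells of clusters 0, 7 and 10, of 54890 cells. The cluster numbers are the deposited ones, and clusters 0, 7 and 10 held 9509, 3318 and 1577 cells.

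All mice were 11-week-old male ob/ob animals, which lack leptin and are obese and diabetic, so that vehicle and treated mice shared this background. The paper gives Jackson Laboratories as the source of the mice for the nuclei and Janvier Labs, with another ob/ob stock, for the whole cells. Each of the 22 libraries came from the hypothalamus of 1 mouse. Treated mice had received a single intracerebroventricular dose of 3 µg FGF1, and controls had received vehicle (PBS) and were pair-fed to the intake of the treated mice. Nuclei were taken on Day 1 after injection from 3 FGF1 and 3 vehicle mice and on Day 5 from 2 and 2, and whole cells were taken on Day 5 from a separate cohort of 6 and 6 kept on a different chow, with neurons removed from the data by the authors. Libraries held 2721087 to 16345981 transcripts, counted as unique molecular identifiers (UMIs), in the nuclei and 2652897 to 11866269 in the whole cells. Of 24645 distinct nuclear barcodes, 318 occurred in more than 1 library, and of 53065 distinct whole-cell barcodes 1791 did.

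Thyroxine from the blood crosses into the brain through carriers such as the one encoded by Slco1c1 and is turned into the active hormone triiodothyronine by the type II deiodinase encoded by Dio2. The active hormone binds the nuclear receptors encoded by Thra and Thrb, which switch target genes such as Klf9, while the protein encoded by Crym binds the hormone in the cytosol. Thrsp is named for its response to thyroid hormone and takes part in lipid synthesis. Tanycytes line the floor and lower walls of the third ventricle and are known as a main site of the deiodinase in the hypothalamus, where they help to set the local supply of active hormone.

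The promoters of Dio2 and Thrsp are shown because Dio2 is the enzyme of the set that tanycytes are known for and Thrsp was the member called in the most whole-cell comparisons on Day 5. Both are the 250 bases before the RefSeq transcription start in GRCm38.p6, written 5′ to 3′ on the minus strand that carries the gene, Dio2 at chr12:90739039-90739288 and Thrsp at chr7:97417551-97417800. Capitals mark matches, on either strand, to the cAMP response element TGACGTCA, the TATA box TATAAA and the CCAAT box CCAAT, which reads ATTGG from the other strand.
Dio2: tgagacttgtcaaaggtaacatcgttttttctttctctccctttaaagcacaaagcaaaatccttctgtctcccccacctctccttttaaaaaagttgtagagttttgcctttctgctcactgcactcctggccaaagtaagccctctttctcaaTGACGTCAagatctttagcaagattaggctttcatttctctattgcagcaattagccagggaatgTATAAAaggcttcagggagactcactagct
Thrsp: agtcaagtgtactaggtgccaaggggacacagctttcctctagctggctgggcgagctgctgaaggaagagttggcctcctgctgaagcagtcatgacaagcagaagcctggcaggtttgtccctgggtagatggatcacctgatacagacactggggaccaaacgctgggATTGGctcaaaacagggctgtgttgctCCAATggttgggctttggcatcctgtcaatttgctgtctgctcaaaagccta
The Dio2 stretch held TGACGTCA with its first base at -95 and TATAAA at -30, counted from the start site. The Thrsp stretch held CCAAT at -52 and, on the other strand, at -79. Neither held the receptor half-site AGGTCA or its direct repeat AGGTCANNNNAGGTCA. Of 32851 mouse promoters of this length, 1.55% held TGACGTCA, 12.4% TATAAA, 33.8% CCAAT, 14% AGGTCA and 0.0152% the direct repeat. A promoter was found for 5 of the 7 genes, and the half-site stood at -184 of the first start site of Thrb. A match is a run of letters and not a shown binding site.

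In GRCm38 (GENCODE M21) all 7 are protein-coding genes. Dio2 lies at chromosome 12, 90724552 to 90738438, on the minus strand, so that the RefSeq start used for its promoter lies upstream of the GENCODE gene. The stretch shown for Thrsp is the reverse case, since most of it lies inside the GENCODE gene. Slco1c1 lies at chromosome 6, 141524368 to 141570177, on the plus strand. Crym and Thrsp lie on the minus strand of chromosome 7, at 120186380 to 120202111 and 97412938 to 97417730. The receptor genes lie on the plus strand, Thra at chromosome 11, 98740638 to 98769006, and Thrb at chromosome 14, 17660261 to 18038090, and Klf9 lies at chromosome 19, 23141226 to 23168134, also on the plus strand. Thra shares 263 exon bases with Nr1d1, which runs on the opposite strand, and Dio2 shares 100 with Gm26512. Whether the counting used strand is not given in the sources used here, so Nr1d1 is given beside Thra below.

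Before treatment effects, the levels in vehicle mice showed where each gene was found. Plain CPM here means UMIs of a gene with the UMIs of all genes in the cells of that cluster and mouse scaled to 1000000. Since the reads come from the 3′ end of transcripts, levels were compared between cells for 1 gene and not between genes. Of 7 tanycyte markers (Rax, Col23a1, Gpr50, Lhx2, Ppp1r1b, Scn7a and Col25a1), 3 stood at 2-fold or more of the rest in cluster 0, 4 in cluster 7 and 7 in cluster 10, while no other marker list reached 3. The nuclei annotated Tany held 5 of the 7 tanycyte markers and 6 of 6 astrocyte markers, and those annotated Astro also held 6 of 6 astrocyte markers. In the nuclei the astrocyte list thus did not part the labels. The tanycyte list was not among the 3 highest lists of the Astro nuclei. Crym and Thrsp were themselves at ranks 1 and 5 by fold among the genes that set cluster 7 apart, Crym was at rank 4 in the Tany nuclei and Dio2 at rank 12 in cluster 10, so the order of levels below is a description of the grouping and was given no test.

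Dio2, the activating deiodinase, was highest in cluster 10, whose leading genes Col25a1 and Scn7a were both on the ventral tanycyte list. Its plain CPM in vehicle mice was 131 ± 90.1 in cluster 10 (SD, n = 6), 49.98 ± 23.3 in cluster 7 and 23.7 ± 7.67 in cluster 0. The ranges of clusters 10 and 7 overlapped (58.4 to 295 and 20.9 to 79.4), and those of clusters 7 and 0 did too (10.4 to 31.6 in cluster 0). Between these in the order stood cluster 18, at 27.2 from 3 UMIs. Ependymal cells, the ciliated neighbours of tanycytes on the ventricular wall, held 4.17 ± 2.73 of Dio2. Crym and Thrsp had another order, with cluster 7 first. Crym reached 739 ± 255 plain CPM in cluster 7, 366 ± 62.6 in cluster 0 and 268 ± 144 in cluster 10, and the lowest vehicle mouse in cluster 7 (450) stood above the highest in cluster 0 (428). Outside tanycytes the mean of Crym was at most 71.0, from 3 UMIs in 2 mice of cluster 19, which carried endothelial, pericyte and smooth muscle markers.

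Thrsp reached 948 ± 208 plain CPM in cluster 7, 637 ± 74.9 in cluster 10 and 447 ± 39.7 in cluster 0, with overlap between neighbours in this order. Astrocyte cluster 1 held 124 ± 40.0 of Thrsp. The thyroxine carrier gene Slco1c1 was scarce in tanycytes. It was highest at 608 ± 62.8 plain CPM in cluster 3, which carried endothelial and pericyte markers, and astrocyte cluster 1 held 49.5 ± 9.25. Clusters 10, 0 and 7 held 12.9 ± 12.3, 9.90 ± 4.64 and 3.25 ± 5.01 of Slco1c1, from 13, 61 and 5 UMIs in 6 vehicle mice.

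The receptor genes and the target Klf9 were spread over most clusters. Thra was highest in cluster 9, which carried markers of committed oligodendrocyte precursors (COP), at 662 ± 141 plain CPM, and the tanycyte clusters 7, 0 and 10 held 341 ± 90.2, 310 ± 18.7 and 295 ± 56.5. These 3 overlapped each other and ependymal cells (314 ± 30.6). Thrb stood at 20.0 ± 8.13 in cluster 0, 17.2 ± 12.2 in cluster 10 and 16.01 ± 10.9 in cluster 7, against 28.9 ± 8.21 in astrocyte cluster 1. Klf9, a transcription factor gene induced by the hormone, stood at ranks 11, 14 and 15 of 18 clusters in clusters 10, 0 and 7, at 192 ± 60.4, 172 ± 58.0 and 152 ± 41.0.

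**Figure D1:**
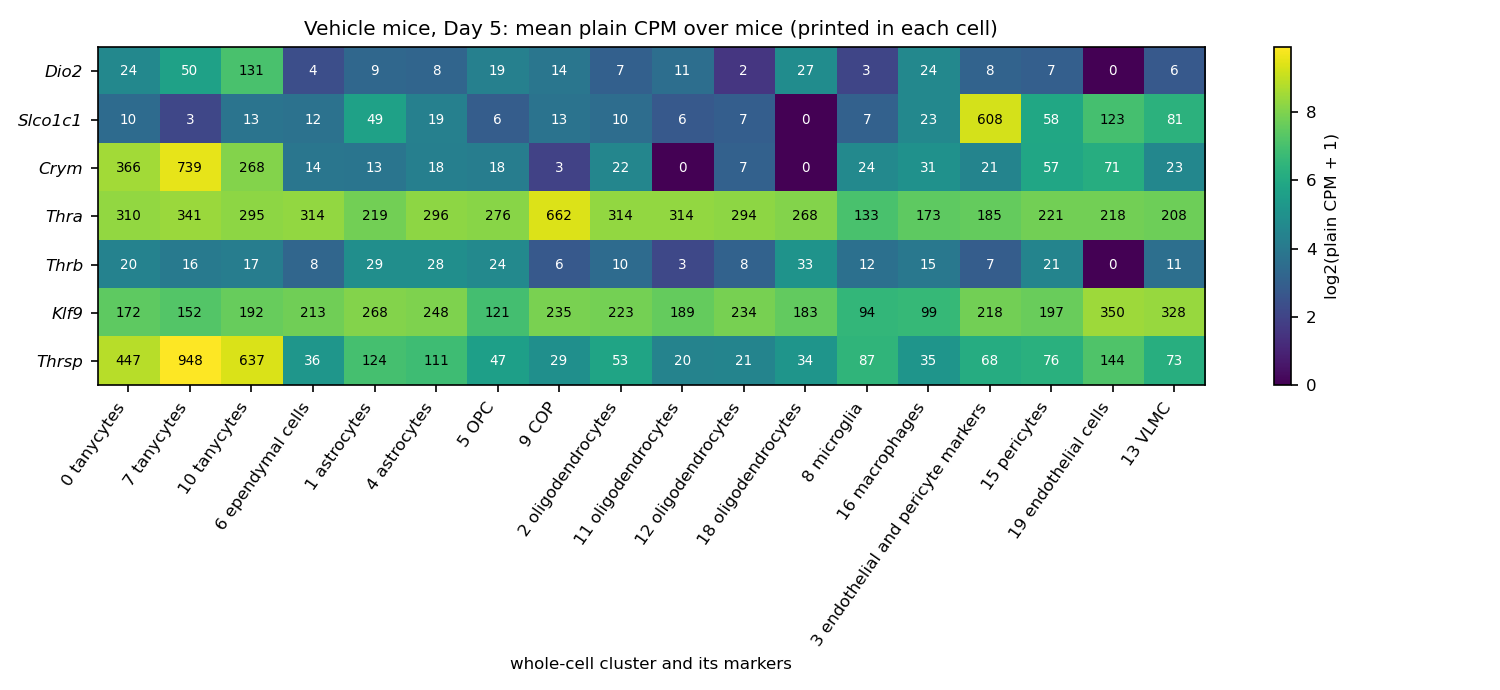
Mean plain CPM of the 7 genes in 18 whole-cell clusters of vehicle mice on Day 5, with the clusters along the horizontal axis, the genes along the vertical axis and colour on a log2(plain CPM + 1) scale. Crym and Thrsp are high in clusters 0, 7 and 10, Dio2 peaks in cluster 10, and Slco1c1 peaks in cluster 3.

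In vehicle nuclei on Day 1 (n = 3) the tanycytes again held the most Dio2, at 39.3 ± 9.97 plain CPM from 15 UMIs, against 17.1 ± 14.8 in vascular leptomeningeal cells (VLMC). Crym stood at 208 ± 50.9 in tanycyte nuclei and 24.9 ± 15.6 in ependymal nuclei. Thra overlapped between ependymal, tanycyte and astrocyte nuclei, at 210 ± 36.6, 207 ± 40.4 and 190 ± 31.7. Thrsp stood at 69.7 ± 64.9, with no UMI in 1 of 3 vehicle mice.

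Genes with the pattern most like each member were sought over 19 whole-cell clusters of vehicle mice, by Pearson's r of log2(plain CPM + 1) among 12289 genes. The clusters share the same libraries, so r is a description. Crym and Thrsp were in each other's first 3 genes (r = 0.90). Crym was also like 6330403K07Rik (0.91) and Col23a1 (0.90), and Thrsp like the tanycyte marker Gpr50 (0.91) and Klhdc8b (0.90). Dio2 was most like Col25a1 (0.91), Cpt1c (0.87) and 4930447C04Rik (0.86). Slco1c1 followed Adgrf5 (0.91), Shroom4 (0.90) and the endothelial marker Ly6c1 (0.90). Thrb was closest to Rpusd3 (0.93), Trim9 (0.92) and Ppargc1a (0.91), and Thra to Tuba1a (0.82), Clip3 (0.82) and 1810037I17Rik (0.81). Klf9 had the weakest likeness, to Arhgef12 (0.75), Vwa8 (0.71) and Cox6c (0.70).

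The first comparison asked what FGF1 did to these genes in tanycyte nuclei on Day 1. The receptor gene Thra fell, and no other tested member was called. UMIs were summed per mouse and compared with edgeR's quasi-likelihood test over all genes that passed a filter on low counts, and a gene was called at a Benjamini-Hochberg false discovery rate (FDR) below 0.05. Values are normalized CPM, UMIs scaled to 1000000 over the genes tested, after TMM scaling. In such sums fewer cells that express a gene and less RNA per cell cannot be told apart. The FGF1 mice gave 119, 43 and 25 tanycyte nuclei and the vehicle mice 32, 35 and 20.

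Thra stood at 86.9, 75.4 and 117 normalized CPM in FGF1 replicates 1, 2 and 3 and at 217, 290 and 305 in the vehicle replicates. The groups did not overlap, and every FGF1 mouse was below every vehicle mouse. The mean was 93.2 ± 21.6 after FGF1 and 271 ± 47.2 after vehicle (SD, n = 3 each), a log2 fold change of -1.57 ± 0.39 (SE) with an FDR of 0.0237 in edgeR's test. In this comparison 9.14% of 3534 genes tested were called and 27.8% had groups that did not overlap, and for genes lower after FGF1 these shares were 3.76% and 13.2%, and for higher genes 5.38% and 14.6%. Within the deposited batches, each of which holds 1 FGF1 and 1 vehicle mouse, Thra had log2 differences of -1.80 to -1.30. Groups that do not overlap differ the same way in every batch, so the batches add nothing on the direction. The call was lost with DESeq2 (adjusted p = 0.0707), without vehicle replicate 1, 2 or 3 or FGF1 replicate 2 (FDR 0.0512 to 0.101), and with the batch as a block (FDR 0.0856), while the log2 fold change stayed between -1.74 and -1.40. Nr1d1, which overlaps Thra, stood at 75.5 to 134 after FGF1 and 65.5 to 197 after vehicle, with an FDR of 0.734.

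The share of tanycyte nuclei with a Thra UMI was 17.1% after FGF1 and 55% after vehicle, and with every nucleus thinned to 1357 UMIs it was 7.46 ± 1.54% and 24.3 ± 5.46%. After the same thinning the share was also lower in astrocyte nuclei, at 8.84 ± 7.45% against 21.7 ± 2.06%, and in ependymal nuclei, at 14.1 ± 11.6% against 25.7 ± 3.88%, where the groups overlapped. Oligodendrocyte nuclei held 10.7 ± 3.48% and 12.8 ± 0.870%. Median UMIs per tanycyte nucleus were 2298 to 2846 after FGF1 and 3384 to 3799 after vehicle.

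Dio2, with 5 UMIs after FGF1 and 15 after vehicle, fell below the low-count filter and was not in the test above. It stood at 15.1, 0 and 16.7 normalized CPM in the FGF1 mice and at 63.3, 56.2 and 35.9 in the vehicle mice. Every FGF1 mouse was below every vehicle mouse, as for 13.2% of the genes that passed the filter, so Dio2 was necessarily lower in 3 of 3 batches. In the fit without the filter it was not called, at a log2 fold change of -2.15 ± 0.84 with an FDR of 0.171 in edgeR's test. The share of tanycyte nuclei with a Dio2 UMI, thinned, was 1.36 ± 1.38% against 5.06 ± 0.391%, and in oligodendrocyte nuclei of the vehicle mice it was 0.176%. With 3 mice a group an exact permutation test cannot reach the threshold, and none was run.

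Crym, the cytosolic hormone-binding protein gene, stood at 431, 201 and 67.0 normalized CPM after FGF1 and 343, 281 and 197 after vehicle. FGF1 replicate 1 was the highest and FGF1 replicate 3 the lowest of all 6 mice. The log2 fold change of -0.14 ± 0.50 had an FDR of 0.902. Thrb, the second receptor gene, did not follow Thra, at 196, 235 and 352 against 334, 112 and 305, a log2 fold change of 0.03 ± 0.44 with an FDR of 0.979. Whether the 2 receptor genes differed in their change was not tested.

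Slco1c1, Thrsp and Klf9 were below the filter. Slco1c1 had 5 UMIs after FGF1 and 9 after vehicle. Thrsp stood at 30.2, 8.38 and 33.5 normalized CPM after FGF1 and 108, 168 and 0 after vehicle, so that vehicle mice were both the highest and the lowest. In the fit without the filter Thrsp was called lower on Day 1, at a log2 fold change of -2.001 ± 0.62 with an FDR of 0.0423 in edgeR's test. It was not called without FGF1 replicate 1, 2 or 3 (FDR 0.176, 0.327 and 0.123), nor by DESeq2 (-2.04 ± 1.02, adjusted p = 0.338). Klf9 ranged from 67.0 to 83.7 after FGF1 and from 74.9 to 127 after vehicle, and the groups overlapped.

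Other measures moved with the treatment in these nuclei. The summed plain CPM of 6 ependymal markers was 101 to 126 after FGF1 and 463 to 599 after vehicle, with 1 or 2 of the 6 at 0 in each FGF1 mouse and none at 0 in the vehicle mice. The 7 tanycyte markers summed to 1174, 1303 and 3616 after FGF1 and 2706 to 3327 after vehicle. The 5 oligodendrocyte markers summed to 65.2 to 75.6 and 98.1 to 136, and the 5 neuron markers to 1262 to 1689 and 1462 to 3393. Ribosomal genes took 2.63% of UMIs in the library of FGF1 replicate 1 and 0.962% to 1.64% in the other nuclear libraries. The part of these in the Thra result was not tested, apart from leaving out nuclei over the stated limit on ribosomal and mitochondrial UMIs, after which Thra stood at a log2 fold change of -1.57 with an FDR of 0.0303 in edgeR's test.

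**Figure D2:**
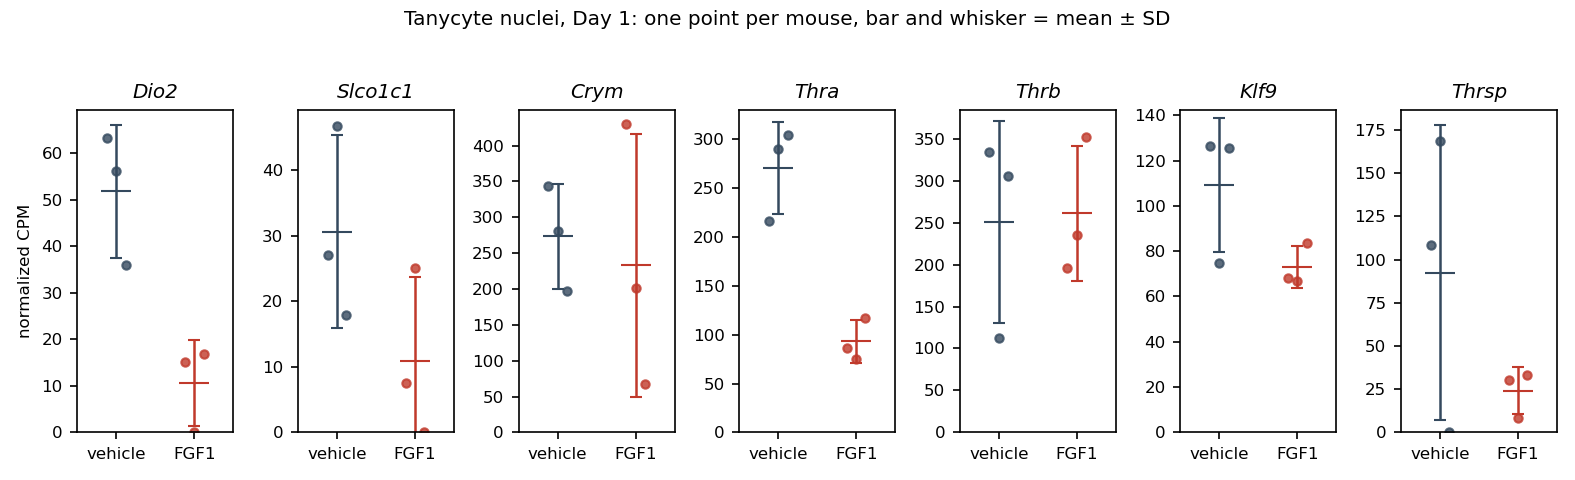
Normalized CPM of the 7 genes in tanycyte nuclei on Day 1, vehicle and FGF1 side by side, with 1 point per mouse (n = 3 each) and the bar and whisker giving mean ± SD on axes that start at 0. Thra and Dio2 are the panels in which the groups do not overlap.

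The thyroid hormone genes around the members were read from 5 lists of 36 symbols, covering other transporters and deiodinases, proteins that turn over the deiodinase, the TRH and TSH axis, receptor partners and hormone-responsive genes. On Day 1, 10 of the 35 found in the nuclear table were tested, with a median log2 fold change of -0.28, and 1 was called, a share near the 9.14% of all genes called there. It was Tshr, the receptor for thyrotropin, which stood at 41.6 to 134 normalized CPM after FGF1 and 298 to 505 after vehicle. The groups did not overlap, as for 13.2% of genes in this direction, and the log2 fold change was -2.13 ± 0.47 with an FDR of 0.0148 in edgeR's test.

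On Day 5 the nuclei allowed a weaker comparison, since vehicle replicate 28 had 9 tanycyte nuclei, under the minimum of 10, and was left out. The 2 FGF1 mice had 34 and 107 nuclei and the remaining vehicle mouse, replicate 38, had 14. None of the 5 members tested was called by edgeR, none of the 5 had an unadjusted p under 0.05, and DESeq2 called none. Of all 4483 genes tested 0.0446% were called (0% as higher) and 372, or 8.3%, had an unadjusted p under 0.05.

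Thrsp stood at 195 and 253 normalized CPM in the FGF1 mice and 126 in the vehicle mouse, a log2 fold change of 0.79 ± 0.54 with an FDR of 0.725. Thra stood at 106 and 139 against 233 (-0.88 ± 0.51, FDR 0.673), and Thrb at 262 and 267 against 144 (0.88 ± 0.49, FDR 0.660). Crym (0.17 ± 0.53) and Klf9 (-0.27 ± 0.64) differed less than their errors. With 2 mice against 1, 78.7% of genes had groups that did not overlap, so that count says little. With vehicle replicate 28 kept, a choice made after seeing the data, none of 2437 genes was called (0%) by edgeR and 207, or 8.49%, had an unadjusted p under 0.05. Thrsp then stood at 0.97 ± 0.48, Thra at -0.53 ± 0.51 and Thrb at 0.19 ± 0.43. Dio2 had 6 UMIs in the FGF1 mice and 1 in vehicle replicate 38, and Slco1c1 17 and 1, and both fell below the low-count filter. Without the filter neither was called, Dio2 at -0.09 ± 1.80 (FDR 0.988) and Slco1c1 at 1.44 ± 1.25 (FDR 0.882) in edgeR's test.

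The effect on Day 5 minus that on Day 1 was tested in 1 model over both days, with vehicle replicate 38 as the only vehicle mouse of Day 5, whose spread was taken to be that of the other groups. In it 0.127% of 6295 genes were called and no member was. Thrsp had a difference of 2.92 on the log2 scale, which rests on that mouse, with an unadjusted p of 0.0150 and an FDR of 0.361 in edgeR's test. The difference was 0.72 for Thra (FDR 0.773) and 0.90 for Thrb (FDR 0.768).

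The whole cells of Day 5 asked the same question with 6 mice a group and far more cells. Thrsp rose in tanycytes, in the 3 clusters summed and in each of them apart. Crym rose in cluster 0. Thra was lower in every FGF1 mouse than in any vehicle mouse over the 3 clusters summed, though short of the threshold. Dio2 and Klf9 were not called in any cluster, nor were Slco1c1 and Thrb in cluster 0, and the latter pair fell below the low-count filter in clusters 7 and 10.

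Over clusters 0, 7 and 10 summed, Thrsp ranged from 728 over a median of 981 to 1241 normalized CPM after FGF1 and from 457 over 538 to 627 after vehicle. The groups did not overlap, with FGF1 replicate 28 the lowest of the treated mice and vehicle replicate 35 the highest of the controls. The mean was 980 ± 194 against 547 ± 68.0 (SD, n = 6 each), a log2 fold change of 0.84 ± 0.12 with an FDR of 0.000293 in edgeR's test. In this comparison 5.08% of 10494 genes were called, 2.29% as higher and 2.79% as lower, and 2.47% had no overlap, 1.37% as higher. With no overlap Thrsp was necessarily higher in 6 of 6 batches, by log2 differences of 0.39 to 1.16.

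Crym ranged from 315 over 671 to 804 normalized CPM after FGF1 and from 308 over 415 to 474 after vehicle. Of the FGF1 mice 5 stood above every vehicle mouse, and replicate 6 stood at 315. The log2 fold change was 0.65 ± 0.19 with an FDR of 0.0624 in edgeR's test. Without FGF1 replicate 6 it was 0.78 with an FDR of 0.000991, and DESeq2 also called Crym (adjusted p = 0.0175). In the other 15 of 17 alternatives Crym was not called, with an FDR of up to 0.175. FGF1 replicate 6 had 290 tanycytes, of which 40% were in cluster 10 and 2.41% in cluster 7, the cluster with the most Crym. It was also the lowest FGF1 mouse within cluster 0 alone, at 415. The part of the cluster shares in its low Crym was not tested.

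Thra ranged from 205 over 245 to 263 after FGF1 and from 272 over 301 to 350 after vehicle. The groups did not overlap, where 1.1% of genes were lower with no overlap. Thra was thus necessarily lower in 6 of 6 batches, by -0.56 to -0.21. The log2 fold change of -0.34 ± 0.10 had an FDR of 0.0546 in edgeR's test. It passed the threshold in 4 of 17 alternatives, among them DESeq2 (adjusted p = 0.0110) and the batch as a block (FDR 0.0477). In the other 13 it did not, with an FDR of up to 0.160. Nr1d1 stood at a log2 fold change of -0.03 ± 0.16.

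Dio2 varied more between mice than between treatments. It ranged from 20.1 over 49.9 to 192 normalized CPM after FGF1 and from 29.8 over 40.2 to 84.4 after vehicle, and the log2 fold change was 0.35 ± 0.56 with an FDR of 0.787. The highest mouse in each group, FGF1 replicate 6 and vehicle replicate 22, also had the largest share of its tanycytes in the Dio2-rich cluster 10, 40% and 16.8%. They were also the highest of their groups within cluster 10 alone, at 429 and 368. The remaining members were lower on average without passing the test: Klf9 by a log2 fold change of -0.38 ± 0.18 (FDR 0.224), Thrb of -0.37 ± 0.21 (FDR 0.340) and Slco1c1 of -0.56 ± 0.33 (FDR 0.347).

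A sum over 3 clusters also moves with how the cells fall among them. Cluster 7 took 2.41% to 54.9% of the tanycytes of FGF1 mice, with a median of 22.7%, and 4.74% to 29.4% of those of vehicle mice, with a median of 10.7%. Cluster 10 took 3.34% to 40% and 5.64% to 16.8%. These shares overlapped and were not tested, since Crym and Thrsp were among the genes that set cluster 7 apart. The same genes were therefore read within each cluster.

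In cluster 0 Thrsp ranged from 575 over 724 to 799 normalized CPM after FGF1 and from 404 over 433 to 512 after vehicle, with no overlap. The log2 fold change was 0.65 ± 0.10 with an FDR of 0.000275 in edgeR's test. With no overlap Thrsp was necessarily higher in 6 of 6 batches. Crym ranged from 415 over 508 to 668 and from 281 over 372 to 439, so that only the lowest FGF1 mouse, replicate 6, fell within the vehicle range. Its log2 fold change was 0.55 ± 0.12 with an FDR of 0.00569 in edgeR's test, and it was higher in 5 of 6 batches. In cluster 0, 5.27% of 9441 genes were called and 2.64% were called higher, against 2 of the 7 members, and 2.56% had no overlap, 1.44% as higher and 1.12% as lower. Thra stood at 229 to 284 against 297 to 340 with no overlap (-0.22 ± 0.10, FDR 0.195) and was thus necessarily lower in 6 of 6 batches. Thrb (-0.61 ± 0.25, FDR 0.156) and Klf9 (-0.43 ± 0.19, FDR 0.215) were not called. Dio2 stood at -0.01 ± 0.31, from 188 UMIs after FGF1 and 138 after vehicle.

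In cluster 7, FGF1 replicate 6 had 7 cells and was left out. Thrsp ranged from 1352 over 1663 to 1983 normalized CPM in 5 FGF1 mice and from 729 over 1031 to 1364 in 6 vehicle mice. The ranges overlapped at 1 mouse on each side, FGF1 replicate 28 and vehicle replicate 22. The log2 fold change was 0.68 ± 0.14 with an FDR of 0.00495 in edgeR's test, and Thrsp was higher in 5 of 5 batches. Of 4027 genes tested here 1.94% were called and 0.968% were called higher. Thra stood at 212 to 294 (293.6) after FGF1 and 294 (294.0) to 533 after vehicle, so that the groups were next to each other without overlap, as 2.83% of genes were, 1.44% as higher and 1.39% as lower. Its log2 fold change was -0.52 ± 0.16 with an FDR of 0.0823. Crym (0.56 ± 0.22, FDR 0.228), Dio2 (-0.41 ± 0.34, FDR 0.584) and Klf9 (-0.44 ± 0.20, FDR 0.269) were not called in edgeR's test. With the batch as a block Crym and Thra passed the threshold here (FDR 0.0326 and 0.0450), and each stayed uncalled in 15 of 17 alternatives.

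In cluster 10 Thrsp ranged from 885 over 1170 to 1797 normalized CPM after FGF1 and from 637 over 823 to 893 after vehicle, and only FGF1 replicate 28 fell within the vehicle range. The log2 fold change was 0.67 ± 0.16 with an FDR of 0.0172 in edgeR's test, in 5 of 6 batches, where 2.13% of 2159 genes were called, 0.973% as higher and 1.16% as lower. The groups of 2.08% of genes did not overlap, 1.25% as higher and 0.834% as lower, and those of no tested member did so. That call was lost without FGF1 replicate 10, FGF1 replicate 36 or vehicle replicate 25 (FDR 0.0501, 0.0510 and 0.0709). Dio2, the leading member in this cluster, ranged from 48.6 over 203 to 429 after FGF1 and from 74.4 over 136 to 368 after vehicle, with a log2 fold change of 0.31 ± 0.55 and an FDR of 0.913. Thra (-0.58 ± 0.19, FDR 0.120) was not called, although 5 of 6 FGF1 mice stood below every vehicle mouse. Crym, whose fitted change was above 0 in clusters 0 and 7, stood at -0.12 ± 0.34 (FDR 0.971), and Klf9 at -0.21 ± 0.33.

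Whether the effect of FGF1 differed among the 3 clusters was tested with the mouse as a block. None of 6772 genes was called (0%) by edgeR, 390 (5.76%) had an unadjusted p under 0.05, none of the 5 members tested was among these, and DESeq2 was not run on this model. Crym differed from cluster 0 by 0.02 in cluster 7 and by -0.62 in cluster 10 on the log2 scale, with an FDR of 0.899. Thra differed by -0.27 in both (FDR 0.845), and Thrsp by 0.09 in both (FDR 0.990). The called change of Crym in cluster 0 was thus not shown to be particular to that cluster.

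**Figure D3:**
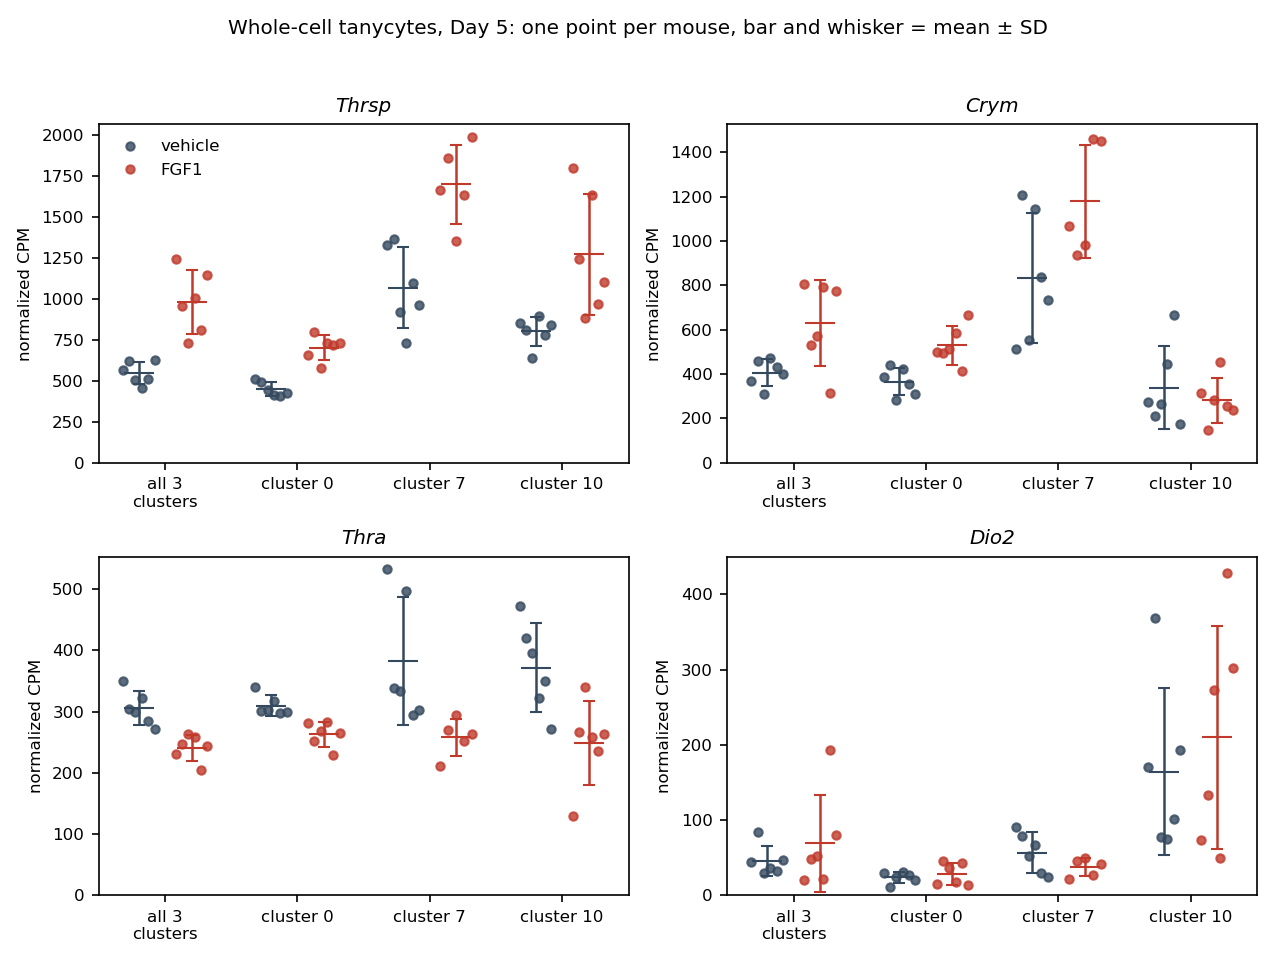
Normalized CPM of Thrsp, Crym, Thra and Dio2 in whole-cell tanycytes on Day 5, for the 3 clusters together and apart, with 1 point per mouse and the bar and whisker giving mean ± SD on axes that start at 0 (6 vehicle and 6 FGF1 mice, 5 FGF1 mice in cluster 7). Thrsp is raised in every panel position, and the Dio2 points of both groups spread widely in cluster 10.

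**Figure D4:**
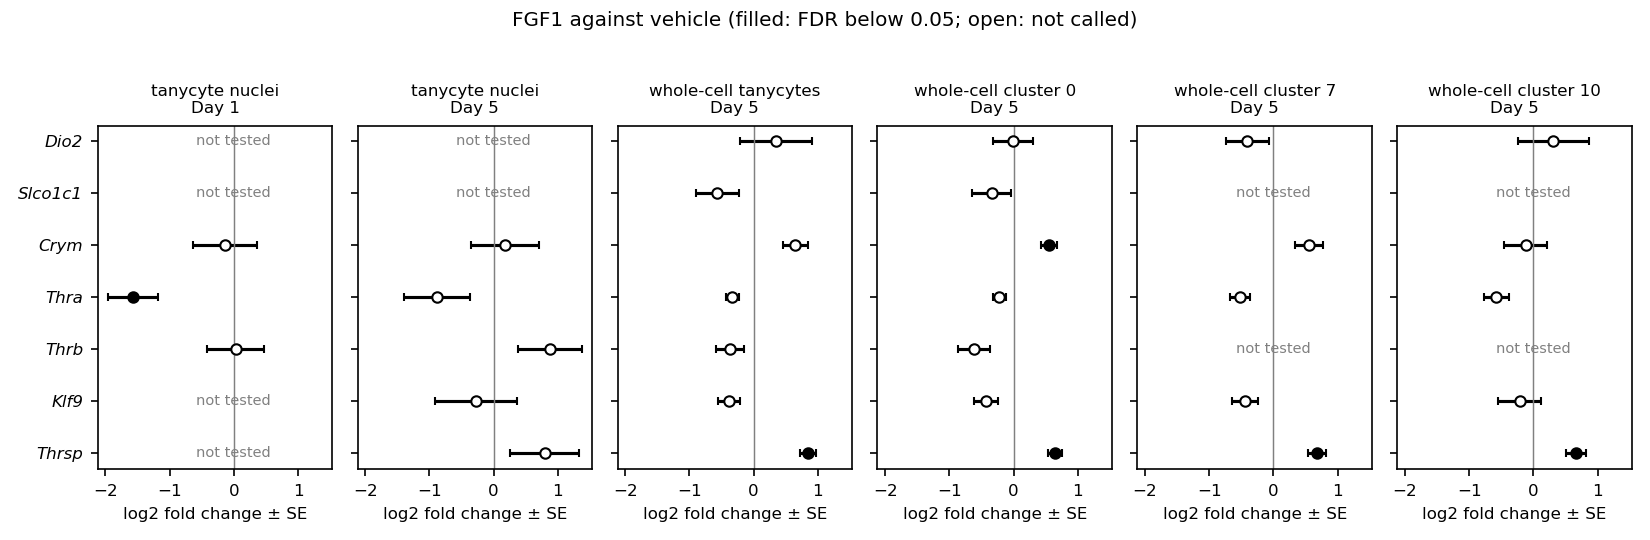
Log2 fold change of the 7 genes, FGF1 against vehicle, with its SE, in the 6 tanycyte comparisons, filled where the FDR was below 0.05 in edgeR's test and open where it was not. Thrsp is filled in the 4 whole-cell panels, Crym in cluster 0 and Thra in the nuclei of Day 1.

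How many cells held a UMI was also read for Thrsp, Dio2 and Crym, without a test. Thinned to 757 UMIs per cell, 34.1 ± 3.30% of cluster 0 cells held a Thrsp UMI after FGF1 and 26.0 ± 1.17% after vehicle. In cluster 7 it was 57.2 ± 6.36% and 44.9 ± 7.44%, where the groups overlapped. Unthinned, these were 49.5% and 38.9% in cluster 0 and 78.9% and 71.3% in cluster 7. Microglia (cluster 8), which should lack the gene, held 5.88% and 5.12% thinned, so the tanycyte shares stood well above that level. Other clusters moved more, at 5.54% after FGF1 and 3.28% after vehicle in oligodendrocyte cluster 2 and 6.11% and 4.47% in cluster 3. The part of free RNA in the droplets in the Thrsp shares was not tested. Median depth was 1285 UMIs in cluster 0, 2123 in cluster 7 and 1264 in microglia. For Dio2 the thinned share was 10.7 ± 6.82% and 8.64 ± 5.33% in cluster 10 and 1.82% and 1.71% in cluster 0, against 0.384% and 0.217% in microglia.

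For Crym the thinned share was 24.5% after FGF1 and 20.5% after vehicle in cluster 0 and 43.2% and 37.2% in cluster 7, with overlap between the groups in both. In cells that should hold little of the gene it moved too, from 1.12% after vehicle to 3.96% after FGF1 in oligodendrocyte cluster 2 and from 1.47% to 2.68% in microglia. Whether free RNA in the droplets gave these shares was not tested.

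Markers of other cells moved with treatment in the whole-cell tanycytes too. The 6 astrocyte markers summed to 816 to 1119 plain CPM in cluster 0 after FGF1 and 1120 to 1408 after vehicle, none of them at 0 in any mouse, and the 5 neuron markers to 141 to 291 and 201 to 435. In cluster 7 the neuron markers summed to 105 to 201 and 221 to 318, and in cluster 10 to 106 to 284 and 323 to 439, without overlap between the groups. Up to 2 of the 5 were at 0 in a mouse. The 7 tanycyte markers overlapped in each cluster (1152 to 1679 and 1142 to 1469 in cluster 0). The part of these in the Thrsp, Crym and Thra results was not tested.

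Of the wider thyroid hormone lists, 23 of 33 genes found in the whole-cell table were tested in the 3 clusters together, 1 was called higher and 2 lower, where 2.29% of all genes were called higher and 2.79% lower, and the median log2 fold change was -0.05. The clearest was Dbp, a clock-controlled transcription factor gene placed on the hormone-responsive list, which stood at 55.8 ± 4.77 normalized CPM after FGF1 and 114 ± 25.5 after vehicle. Its log2 fold change was -1.01 ± 0.13 with an FDR of 8.55e-05 in edgeR's test. Dbp was also called lower in cluster 0 (-0.88 ± 0.14), cluster 7 (-1.33 ± 0.19) and cluster 10 (-0.92 ± 0.22), and in none of these did the groups overlap, as for 1.12%, 1.39% and 0.834% of genes in this direction. Hr, a corepressor gene that is itself induced by the hormone, was called lower (-1.30 ± 0.34, FDR 0.0268) on 59 and 74 UMIs.

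Hdac3, a deacetylase of the receptor corepressor complex, was called higher in the 3 clusters together (0.48 ± 0.12, FDR 0.0242) and in cluster 0 (0.52 ± 0.14, FDR 0.0229). Of the 7 genes on the hormone-responsive list 5 were tested in the 3 clusters together, Dbp and Hr were the 2 called, and the median log2 fold change was -0.94. In cluster 0 it was -0.36, with 1 of 3 called. The median over the 3 clusters together was 0.48 for 4 genes of transport, binding and deiodination, -0.05 for 4 of deiodinase turnover, 0.17 for 2 of the TRH and TSH axis and 0.03 for 8 receptor partners, of which Hdac3 was the 1 called. In cluster 0 the 4 genes of transport, binding and deiodination had a median of 1.12 and none was called. All 4 had an unadjusted p under 0.05 in edgeR's test, as 19.7% of all genes tested there did. Dio3, the deiodinase that inactivates the hormone, was among the leading genes of cluster 0, where it had 204 UMIs after FGF1 and 35 after vehicle. It ranged from 0 over 23.2 to 35.0 normalized CPM and from 0 over 5.35 to 13.8, with a log2 fold change of 1.91 ± 0.64 and an FDR of 0.118, and was not called. The number of list genes tested and called was 20 and 2 in cluster 0, 12 and 1 in cluster 7 and 7 and 1 in cluster 10, where 5.27%, 1.94% and 2.13% of all genes were called.

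Outside tanycytes the 7 genes were read in 38 comparisons of other nuclear types and whole-cell clusters. Of 96 member tests 2 were called in edgeR's test, both of them Crym in whole cells on Day 5, and 15 had an unadjusted p under 0.05. The share of all genes with such a p ran from 1.48% to 31.5% over these comparisons. In astrocytes Crym ranged from 18.6 over a median of 34.6 to 56.8 normalized CPM after FGF1 and from 5.59 over 13.2 to 22.8 after vehicle, with overlap. The means were 34.8 ± 14.6 and 14.02 ± 6.29, a log2 fold change of 1.19 ± 0.28 with an FDR of 0.00770, where 12.6% of 9830 genes were called, 6.55% as higher. In oligodendrocytes it stood at 54.3 ± 18.5 and 19.4 ± 6.75 (1.498 ± 0.27, FDR 0.00777), where 2.25% of 8438 genes were called, 1.13% as higher. Over the 38 comparisons the share of genes called ran from 0% to 19%, with a median of 0.119%. The cells pooled in these classes came from different clusters in the 2 groups. Astrocyte cluster 1 held 1531 FGF1 and 7940 vehicle cells and cluster 4 held 3412 and 697, and Crym stood at 16.8 ± 15.8 and 13.3 ± 6.49 plain CPM in cluster 1 and at 40.5 ± 16.8 and 18.4 ± 11.3 in cluster 4, with overlap in both. Oligodendrocyte clusters 2, 11 and 12 held 1799, 1212 and 223 FGF1 cells and 5610, 166 and 952 vehicle cells. Within cluster 2 alone Crym ranged from 49.1 to 181 plain CPM after FGF1 and from 8.88 to 31.1 after vehicle. The part of the clusters in the pooled results was not tested. In every batch tanycytes, which hold the most Crym, were a larger part of the FGF1 library than of the vehicle library. They were 2496 of 4833 and 690 of 3224 cells in batch 1, and 1295 of 3871 and 441 of 1967 in batch 2. The thinned share of Crym also rose in microglia, as given above. The part of free tanycyte RNA in the Crym results of other types was not tested. The pooled levels are a small part of those in the tanycyte clusters, and in the vascular cluster 3 Crym was higher by 1.64 ± 0.41 without being called (FDR 0.0854). Thrsp was higher in 8 of the 9 other comparisons in which it was tested, all 8 of Day 5 and drawn from shared mice. It was called in none of the 9 and had an unadjusted p under 0.05 in 3 in edgeR's test. Whether its rise on Day 5 differed between tanycytes and other types was not tested. In Day 1 astrocyte nuclei, where it was below the filter and had no test, it had 18 UMIs after FGF1 and 38 after vehicle, or 8.63 ± 7.82 and 39.5 ± 9.46 normalized CPM (SD, n = 3 and 3).

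Thra was lower in 20 of the 28 other comparisons in which it was tested and called in none, with an unadjusted p under 0.05 in 1. A direct test on Day 1 compared the effect of FGF1 between tanycyte, ependymal and astrocyte nuclei and called 0.211% of 5682 genes. Thra was not among them, with effects 0.85 and 0.56 higher than in tanycytes on the log2 scale (FDR 0.929), so the fall on Day 1 was not shown to be particular to tanycytes. Crym had effects 2.29 and 2.24 higher in ependymal and astrocyte nuclei, with an unadjusted p of 0.00515 and an FDR of 0.261.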

How the data were processed

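The deposited tables hold raw UMI counts per gene and nucleus or cell, made by the authors with Cell Ranger 1.2 on GRCm38 (mm10), with introns included for the nuclei. Cell types, clusters and batches were taken from the deposited metadata. For the whole-cell limit below, the percentages of mitochondrial and ribosomal UMIs are those the authors computed. For the nuclei, and for the ribosomal shares of libraries given above, they were computed here from gene names. The authors removed likely doublets from the whole cells with Scrublet and omitted that step for the nuclei. A stated limit of 5% (nuclei) or 20% (whole cells) on mitochondrial or ribosomal UMIs would leave out 905 nuclei and 4382 cells that are in the tables. They were kept, and leaving them out was an alternative.

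For each cell type, the counts of a mouse with at least 10 such cells were added up, and groups were compared with edgeR 4.0.16 (filterByExpr, TMM, robust quasi-likelihood test, R 4.3.3), adjusted by Benjamini-Hochberg over all genes tested. DESeq2 1.42.0, RLE scaling, no low-count filter, each mouse left out and blocks were alternatives, and the scripts were tested on simulated data. Each library is 1 mouse, so p-values of fits without a block measure the spread between mice. In fits with a block they measure the spread left within mice, batches or replicate numbers. For Day 5 nuclei with 1 vehicle mouse, that mouse has no spread of its own. Intervals are SD over mice or SE of the fit. The members, lists and tests were chosen with earlier results of these data known. Named genes are the 7 members, pathway-list genes called in a tanycyte comparison and the 3 genes most like each member. Dio3, Nr1d1 and genes that lead clusters were named after their values were seen. A cluster was called a cell type where at least 3 of its markers were at 2-fold of the rest and in 10% of cells.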

Additional observations from a re-analysis of the deposited data

Results flagged for a closer look

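Among 56 groups of 4 to 10 mice, 5 held 1 mouse far above the others by Dixon's criterion, which chance alone gives in about 1 of 20 groups. In the 3 tanycyte clusters together, FGF1 replicate 6 had the highest Dio2 (192 normalized CPM, the next mouse 79.9) and the highest Slco1c1 (17.5, the next 8.39), and vehicle replicate 22 had the highest Dio2 of its group (84.4, the next 46.8). In cluster 7, vehicle replicate 29 had the highest Slco1c1 (14.3, the next 3.96), a gene with 5 UMIs over all vehicle mice there, and FGF1 replicate 21 had the highest Thrb (41.2, the next 19.4).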

How the results depend on the processing

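Leaving out 1 mouse at a time gave 0 to 1 members called in Day 1 nuclei, 1 to 2 in the 3 whole-cell clusters together, 1 to 2 in cluster 7 and 0 to 2 in cluster 10, and 2 each time in cluster 0. In Day 1 nuclei the 1 member called was Thrsp without vehicle replicate 3, the mouse with no Thrsp UMI, and Thra without FGF1 replicate 1 or 3, and 72 to 378 genes were called in all. Without the low-count filter 2 members were called there (Thrsp and Thra, both lower) and 2 in cluster 7 (Crym and Thrsp, both higher). In other types 7 of 249 member tests were called without the filter, and the share of all genes called in those fits was not counted. DESeq2 called 0 members and 255 genes in Day 1 nuclei. In the 3 clusters together it called 3 members (Crym, Thrsp and Thra). Against 323 of 3534 and 533 of 10494 genes called by edgeR, it called fewer genes in both. It called 4 of 249 member tests in other types, where the share of all genes it called was not counted. With the batch as a block 0 members were called in Day 1 nuclei, an alternative chosen after seeing the data. There 119 genes were called against 323 without it. With that block 2 members were called in the 3 clusters together and 3 in cluster 7. The number of all genes it called in the 3 clusters together is not given here. For Day 5 nuclei with 2 mice against 1, the batch block could not be fitted and no mouse could be left out. Neither was run there with vehicle replicate 28 kept. Without vehicle replicate 35, Thra passed the threshold in the 3 clusters together, in cluster 7 and in cluster 10 (FDR 0.0281, 0.0385 and 0.0427), and without FGF1 replicate 28 in the 3 clusters together (0.0446). Of 17 alternatives each, Thra stayed uncalled in 13, 15 and 16 in these 3 comparisons. RLE scaling changed no count of members called. Without 1 mouse the number of all genes called ran from 203 to 925 in the 3 clusters together (533 with all mice), 234 to 732 in cluster 0 (498), 28 to 114 in cluster 7 (78) and 30 to 63 in cluster 10 (46). Without the low-count filter it was 563 in Day 1 nuclei, 28 in Day 5 nuclei, 124 in cluster 7 and 79 in cluster 10, and with the batch block 119 in cluster 7. How many genes were tested without the filter is not given here, so those totals are counts and not shares.

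In Day 1 nuclei neither the replicate numbers nor the batches paired the mice. Mice of the same batch correlated at 0.0247, -0.24 and -0.334. Same-numbered mice correlated at -0.0763, -0.266 and 0.18, and the fit with the replicate block called 0 members and 235 genes. The Thra log2 fold change in it was -1.53 with an FDR of 0.0503.

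The members whose direction turned were not called under any setting. Thrb in Day 1 nuclei stood at -0.078 with nuclei over the stated limit left out and at -0.39 to 0.32 without 1 mouse, and Crym there at -0.92 to 0.17. Dio2 in cluster 0 stood at 0.10 with DESeq2 and at -0.27 to 0.16 without 1 mouse. In cluster 10 Crym stood at 0.0196 without the low-count filter and at -0.32 to 0.22 without 1 mouse, and Klf9 at -0.45 to 0.00101 without 1 mouse. The cause was not tested. Depth limits Dio2, Slco1c1, Thrsp and Klf9 in Day 1 nuclei, which had 60 or fewer UMIs each.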
